A study of Homo sapiens with 4 samples.

Results

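The integrin and laminin chains were followed in SAS cells, an established line of tongue squamous cell carcinoma, after knockdown of AEG-1. They comprised 35 of the 27953 genes on the array (an identifier with no symbol counting as a gene), namely 25 integrin alpha or beta chains and 10 laminin chains. The set was defined by gene name, with earlier results of these data known, and was represented by 45 of the array's 34127 probes. AEG-1 (gene symbol MTDH, also called LYRIC) is an adaptor protein known to interact with NF-kB.

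SB cells were SAS cells stably carrying an shRNA against AEG-1 (pLKO.1-LYRIC shRNA-B), and SCt cells were their control. The labels give the control as the pLKO.1 vector, whereas the study's methods describe a scrambled shRNA. Both lines were made with lentivirus and kept under puromycin (2 μg/ml, selected over 14 days), and the comparison rests on 1 shRNA in 1 cell line. Each of the 4 arrays, which the labels call biological replicates, held SB RNA in the red channel and SCt RNA in the green channel. As the dyes were never swapped, an effect of the dye on a single probe cannot be told apart from an effect of the knockdown. All ratios below are SB over SCt on the log2 scale, so that a value below 0 means less RNA in SB cells, and means are given with their SD over the arrays or their 95% interval where the results turn on them.

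Integrins are receptors of 1 alpha and 1 beta chain that anchor cells to the extracellular matrix and signal through focal adhesions. Laminins are trimers of 1 alpha, 1 beta and 1 gamma chain and are the main adhesive proteins of basement membranes. In stratified epithelium, ITGA6 and ITGB4 pair in the hemidesmosome, which ties keratin filaments to a laminin that holds LAMA3 and LAMB3. Carcinoma cells also migrate on that laminin through ITGA3 with ITGB1, on collagen through ITGA2 with ITGB1, on fibronectin through ITGA5 with ITGB1, and on vitronectin through ITGAV with ITGB3 or ITGB5. Several laminin and integrin chains are further found outside epithelium, in leukocytes, platelets, muscle or vessels.

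The knockdown was checked first. The MTDH probe read 1486, 1868, 1895 and 1628 in red and 6348, 9741, 11047 and 10924 in green on arrays 1 to 4, as raw median intensity. After normalization its ratio was -3.18 ± 0.17 (SD, n = 4; limma, adjusted p = 5.19e-10), and all 4 arrays matched their labels. Between 85.4% and 90.3% of spots were well above background in the SB channel and between 84.7% and 90.0% in the SCt channel, and precision is set by how few arrays there were. All 8 markers of squamous epithelium (KRT5, KRT14, KRT6A, KRT17, CDH1, TP63, EPCAM and DSP) were well above background in both channels of all 4 arrays. So were 4 of 4 leukocyte markers (PTPRC, CD3E, CD14 and CD68), 6 of 6 markers of endothelium and platelets and 3 of 6 fibroblast markers. Passing this flag therefore does not by itself separate cell types here. No tested marker of these lists was past the threshold (lowest ratio -0.28, for KRT6A).

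Promoter sequence was taken from RefSeq (GRCh38.p14) as the 250 bases before each listed start. The table held 32 such windows for 25 of the 35 genes, several genes having more than 1 start and some windows overlapping. Of these windows, 2 held TGANTCA, the core of an AP-1 site, and these belonged to LAMA3 and LAMB3, chains of the same laminin. That share, 6.25%, is close to the 6.57% of all 35116 windows of the table. The NF-kB consensus was found in 5 of the 32 windows (15.6%), from 4 genes (ITGA10, ITGA11, ITGB1 and LAMB3), against 6.88% of all windows. GGGCGG, a GC box, lay in 17 of 32 windows (53.1%) and in 42.6% of all windows. Both strands were searched; TGANTCA is its own reverse complement and each match was counted once, and the capitals mark matches to TGANTCA or the NF-kB consensus. The LAMA3 window lies inside the gene, ahead of an internal start (chr18:23872770-23873019, plus strand), with matches 125 and 69 bases before it. The LAMB3 windows precede an inner start (chr1:209651375-209651624, minus strand, TGANTCA 67 bases before it) and the outermost start (chr1:209652426-209652675, minus strand, with 3 NF-kB matches, of which 2 overlap). For ITGB5, the integrin chain that rose, the outermost start is shown (chr3:124901419-124901668, minus strand). None of the 3 ITGB5 windows held a TGANTCA or NF-kB match, which says only that these letters are absent from them.
LAMA3: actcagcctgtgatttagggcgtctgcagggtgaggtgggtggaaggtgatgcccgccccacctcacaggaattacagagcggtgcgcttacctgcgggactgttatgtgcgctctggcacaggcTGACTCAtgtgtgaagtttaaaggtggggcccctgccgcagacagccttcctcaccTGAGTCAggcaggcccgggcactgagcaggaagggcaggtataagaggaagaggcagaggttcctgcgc
LAMB3 inner start: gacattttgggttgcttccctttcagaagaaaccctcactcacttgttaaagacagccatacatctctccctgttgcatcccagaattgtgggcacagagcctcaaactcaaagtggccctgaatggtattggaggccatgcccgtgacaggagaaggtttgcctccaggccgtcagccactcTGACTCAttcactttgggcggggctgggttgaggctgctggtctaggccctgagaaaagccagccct
LAMB3 outermost start: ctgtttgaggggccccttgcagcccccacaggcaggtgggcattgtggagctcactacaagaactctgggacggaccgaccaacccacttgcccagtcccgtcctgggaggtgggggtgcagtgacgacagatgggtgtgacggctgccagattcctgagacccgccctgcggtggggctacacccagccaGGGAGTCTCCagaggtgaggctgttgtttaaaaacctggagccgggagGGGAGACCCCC
ITGB5: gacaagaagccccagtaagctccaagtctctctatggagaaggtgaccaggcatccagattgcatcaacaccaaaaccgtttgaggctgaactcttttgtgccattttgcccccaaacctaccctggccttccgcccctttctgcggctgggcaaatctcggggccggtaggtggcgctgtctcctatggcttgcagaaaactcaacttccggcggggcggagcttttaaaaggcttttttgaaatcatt

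Of the 35 chains, 31 had a probe bright enough to be tested, each represented by its brightest probe. Only 1 of the 31 passed an adjusted p of 0.05: ITGB5, which rose. That share of 3.23% is near the 3.51% of all 23484 genes that passed (1.26% higher and 2.26% lower). At an unadjusted p under 0.05 there were 7 of 31 (22.6%), against 18.1% of all genes. Those were 3 with positive ratios (ITGB5, LAMA1 and ITGA7; 9.17% of all genes) and 4 with negative ones (LAMB1, LAMA3, ITGA3 and ITGA6; 8.98% of all genes). Neither count set the chains far from the rest of the array. The median ratio over the 31 chains was -0.015 and that over all genes was 0.013. Of the chains, 13 had a positive mean and 18 a negative one, against 13004 and 10480 of all genes. The median size of a ratio, sign aside, was 0.08 for the chains and 0.07 for all genes, and the median SD between arrays was 0.18 for the chains and 0.11 for all genes. With 4 arrays an exact two-sided sign-flip test of a single gene cannot go below p = 0.125.

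**Figure D1:**
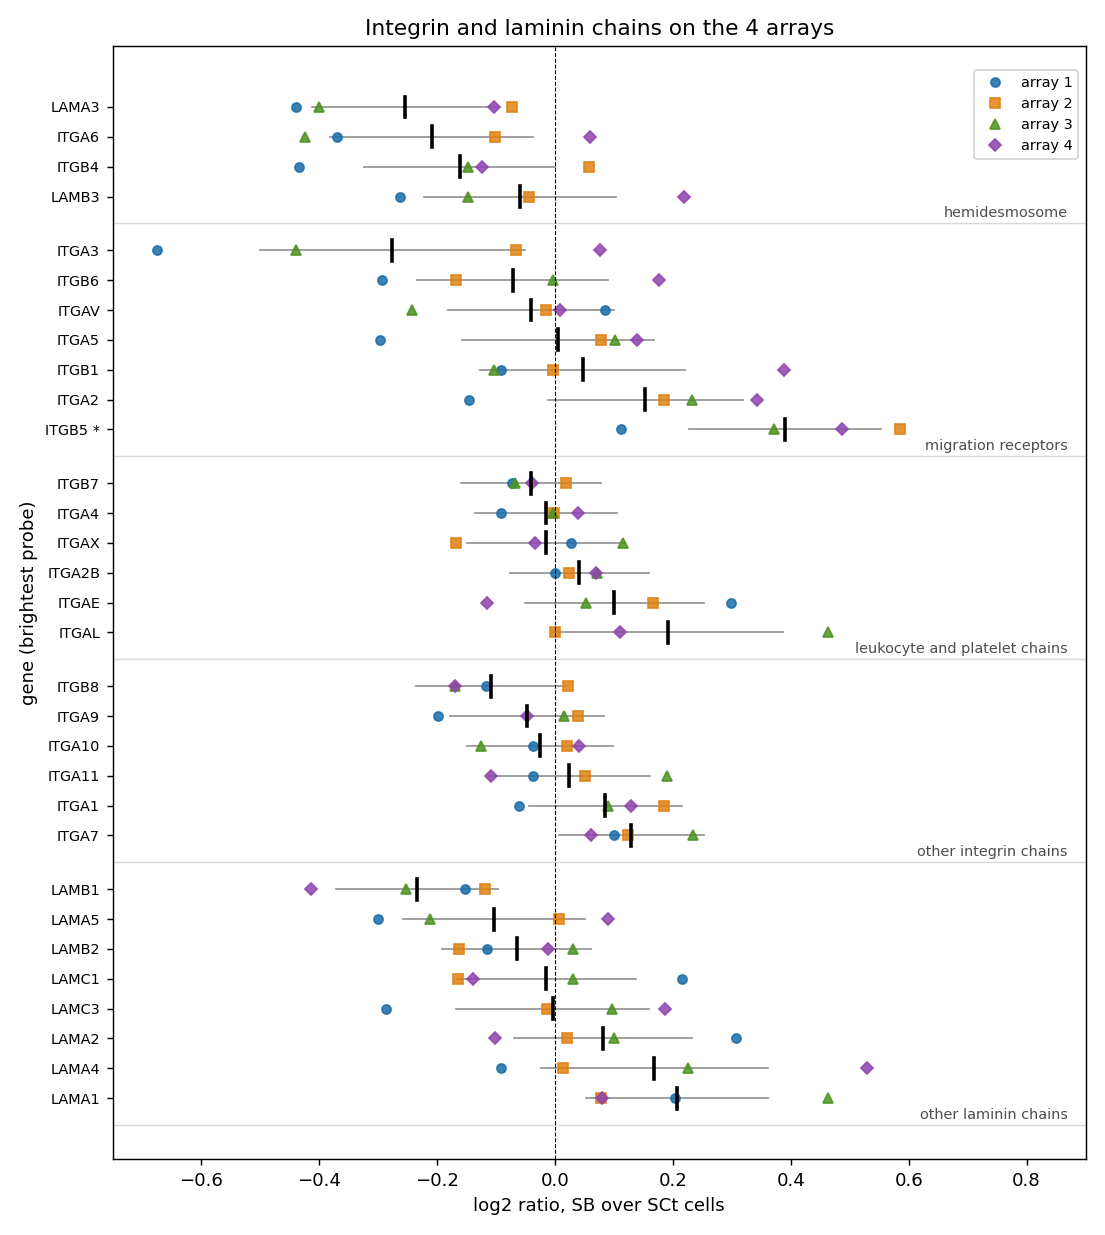
Log2 ratio of SB over SCt cells (horizontal axis) for each of the 31 tested integrin and laminin chains (rows, by group), with 1 symbol per array, a black bar at the mean and a grey line for its 95% interval from limma. ITGB5, marked by an asterisk, was the chain past an adjusted p of 0.05, and its 4 symbols lie between 0.11 and 0.59.

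ITGB5 is the beta chain that pairs with ITGAV as a vitronectin receptor. Its probe read 6020, 6683, 7104 and 10574 in red and 2588, 2871, 3620 and 4669 in green on arrays 1 to 4, before normalization. The normalized ratios were 0.11, 0.59, 0.37 and 0.49. Thus array 1 was lowest and all 4 lay above 0, as did 14.1% of all genes with 4 values. The mean was 0.39 ± 0.20 (SD, n = 4; limma, adjusted p = 0.0146), 1.31-fold higher in SB cells. In such bulk RNA, more cells with the transcript and more transcript per cell cannot be told apart. This call did not hold when array 2 was left out (0.32, adjusted p = 0.0878 in limma) or array 3 (0.40, adjusted p = 0.136). It was also lost, narrowly, with the ratios of the scanner software (0.40, adjusted p = 0.0506 in limma), with the deposited table (0.40, adjusted p = 0.0581) and with the trend and robust options of eBayes (0.39, adjusted p = 0.0506). With the test of the study's methods in place of limma, the ITGB5 call was lost by far more (0.39, adjusted p = 0.328). That test called 0 of all 28505 probes. Over 16 ways of processing, the ITGB5 ratio ranged from 0.32 to 0.52 and was past the threshold in 10.

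The partner chain ITGAV showed ratios of 0.09, -0.01, -0.24 and 0.0089, which lay on both sides of 0, with a mean of -0.04 (95% interval -0.18 to 0.10). ITGB6, another partner of ITGAV, known for its rise in migrating and malignant epithelium, had a mean of -0.07 ± 0.20 (SD, n = 4; interval -0.23 to 0.09), negative on 3 arrays. ITGB3, which also pairs with ITGAV, was dim, being well above background on 3 arrays in red and 2 in green, and was therefore not tested. Its ratios of 0.10, 0.23, 0.30 and 0.41 were nonetheless all positive. With no filter on dim probes its mean was 0.26 (limma, adjusted p = 0.0420). Without array 1 it passed the filter, but only through the red SB channel, as green was well above background on 2 arrays. Its mean was then 0.31 (limma, adjusted p = 0.0435). Since it entered through the channel where it was higher, that value is no independent support. For the vitronectin receptors, therefore, both beta chains gave positive ratios on all arrays, 1 of them from a probe near background, while the alpha chain did not pass.

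The other migration receptors did not pass the test. ITGA3, the receptor chain for the laminin of LAMA3, gave ratios of -0.68, -0.07, -0.44 and 0.08. The spread was wide, with arrays 1 and 3 low and array 4 above 0, and the mean was -0.28 ± 0.34 (SD, n = 4; limma, adjusted p = 0.171). Without array 4 its mean was -0.39 (adjusted p = 0.0012 in limma), so that this library decided whether it was past the threshold. ITGA2, the collagen receptor chain, had ratios of -0.15, 0.18, 0.23 and 0.34, of which array 1 was the negative one. Its mean was 0.15 (interval -0.01 to 0.32; limma, adjusted p = 0.304).

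ITGB1, the beta chain shared by most of these receptors, had a mean of 0.05 (interval -0.13 to 0.22), with array 4 at 0.39 and the rest between -0.10 and -0.0038. ITGA5, the fibronectin receptor chain, had a mean of 0.0055 (interval -0.16 to 0.17). Its array 1 read -0.30 and the other arrays 0.08, 0.10 and 0.14. A difference as low as -0.13 or as high as 0.22 is thus within the error for ITGB1, and -0.16 or 0.17 for ITGA5. Over the 7 tested migration receptors, ratios ran from -0.28 to 0.39, with 4 positive, 3 negative and a median of 0.0055.

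The hemidesmosome chains were the group with the lowest median, although none of them passed the test. LAMA3, the alpha chain of the epithelial laminin, had ratios of -0.44, -0.07, -0.40 and -0.10. All 4 lay below 0, as did 12.3% of all genes with 4 values, and the mean was -0.25 ± 0.19 (SD, n = 4; limma, adjusted p = 0.0796). LAMB3, the beta chain, had ratios of -0.26, -0.04, -0.15 and 0.22 with a mean of -0.06 (interval -0.22 to 0.10; limma, adjusted p = 0.730). Its direction turned when arrays were centred on their median in place of loess (0.22, adjusted p = 0.0343 in limma).

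ITGA6, the laminin-binding alpha chain of the hemidesmosome, had ratios of -0.37, -0.10, -0.42 and 0.06 on its brightest probe. The mean was -0.21 ± 0.23 (SD, n = 4; limma, adjusted p = 0.176). Its other probe gave 0.03 ± 0.29 (SD, n = 4), with ratios of -0.27, 0.0019, -0.05 and 0.43, so the probes of this gene disagreed in sign. On both, array 4 was the highest and above 0. ITGB4, its partner, read -0.43, 0.06, -0.15 and -0.12, with a mean of -0.16 ± 0.20 (SD, n = 4; limma, adjusted p = 0.269), and -0.0030 with median centring. When array 4 was left out, LAMA3 (-0.30, adjusted p = 0.0073 in limma) and the brightest ITGA6 probe (-0.30, adjusted p = 0.0074 in limma) passed the threshold.

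Other parts of the hemidesmosome are not among the 35 chains and were read from a list of partner genes. COL17A1, the transmembrane collagen of the hemidesmosome, fell. It read -0.53, -0.18, -0.50 and -0.31, with a mean of -0.38 ± 0.16 (SD, n = 4; limma, adjusted p = 0.0105), and lost its call without array 3 (-0.34, adjusted p = 0.119 in limma).

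DST, whose epithelial isoform links the hemidesmosome to keratin, had 3 probes, all below 0 on all 4 arrays. The brightest did not pass (-0.13; limma, adjusted p = 0.264), the next did (-0.34; limma, adjusted p = 0.0270) and the remaining one did not (-0.24; limma, adjusted p = 0.151). Of all tested probes, 3.7% passed. PLEC, the other keratin linker, gave 0.12 on its brightest probe and -0.16 on another. The tetraspanin CD151, which binds laminin receptors, gave -0.10 (limma, adjusted p = 0.382). Thus 1 of these 4 hemidesmosome partners fell by the brightest probe, and 3 of 4 had a negative mean. Among all 23484 genes, 2.26% were called lower and 10480 had a negative mean.

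**Figure D2:**
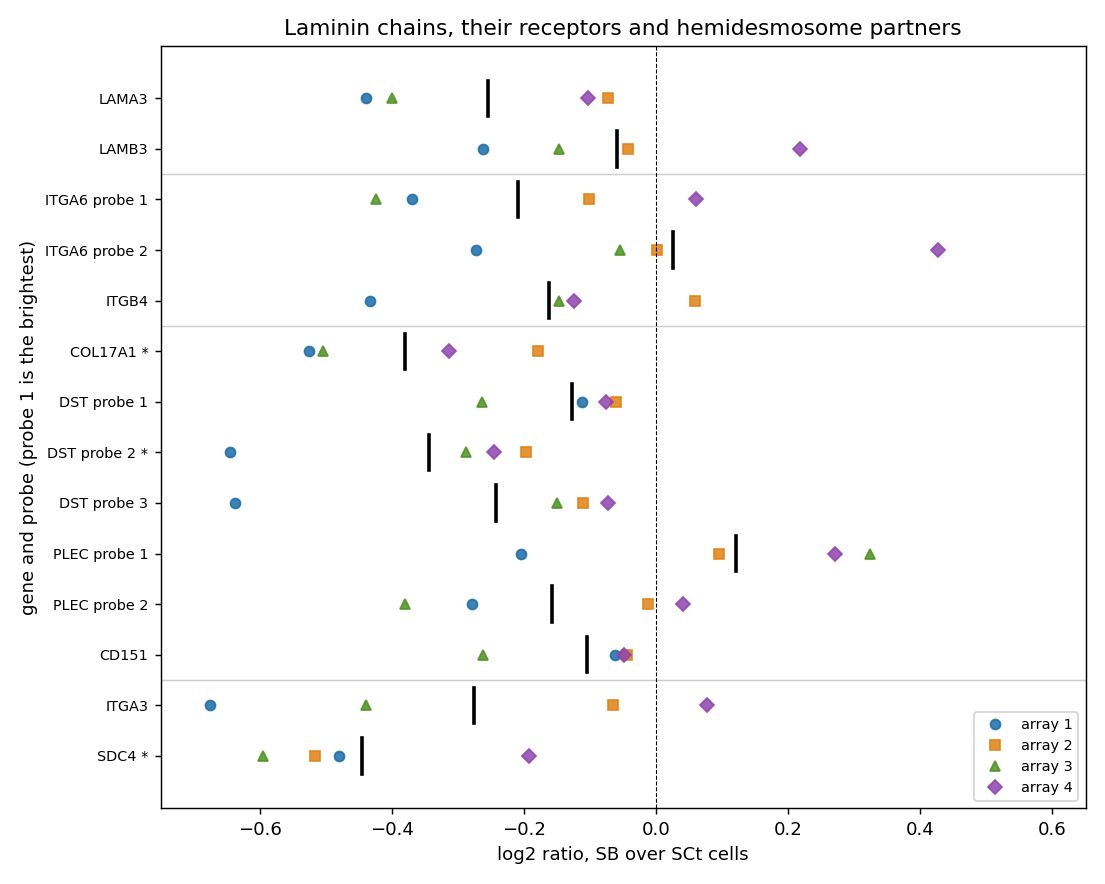
Log2 ratio of SB over SCt cells (horizontal axis) for the tested probes of LAMA3, LAMB3, the hemidesmosome integrins and 4 partner genes, with ITGA3 and SDC4 (rows), with 1 symbol per array and a black bar at the mean; asterisks mark an adjusted p under 0.05. COL17A1 and all 3 DST probes lie below 0 on all 4 arrays, and the ITGA6 and PLEC probes lie on both sides.

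The hemidesmosome chains stood below the other chains mainly on arrays 1 and 3, and the migration receptors stood farthest from them on array 4, above. The median over the 4 hemidesmosome chains was -0.40, -0.06, -0.27 and -0.02 on arrays 1 to 4. Over the 20 tested chains that belong neither to the hemidesmosome nor to the migration receptors, it was -0.06, 0.02, 0.06 and 0.01. The hemidesmosome median was the lower on all 4 arrays, by a mean difference of -0.20 ± 0.16 (SD, n = 4), although arrays 2 and 4 differed by no more than -0.08 and -0.04. The migration receptors gave -0.15, -0.0038, -0.0034 and 0.18, below the other chains on 3 arrays and above them on array 4, with a mean difference of -0.0030 ± 0.11 (SD, n = 4). The median over all genes, which loess sets near 0, was between 0.0028 and 0.02 on each array. These are descriptions of 4 to 20 genes and no test was made of them. With median centring in place of loess, the median over the genes' mean ratios went from -0.19 to -0.04 for the hemidesmosome, from 0.0055 to 0.11 for the migration receptors and from -0.0093 to 0.08 for the other chains. The hemidesmosome and migration chains also varied more between arrays, with a median SD of 0.20 against 0.12 for the other chains. Within the other chains, however, it was 0.18 for the laminins, 0.09 for the leukocyte and platelet chains and 0.10 for the remaining integrins. A wide spread was therefore not particular to the hemidesmosome and migration chains.

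**Figure D3:**
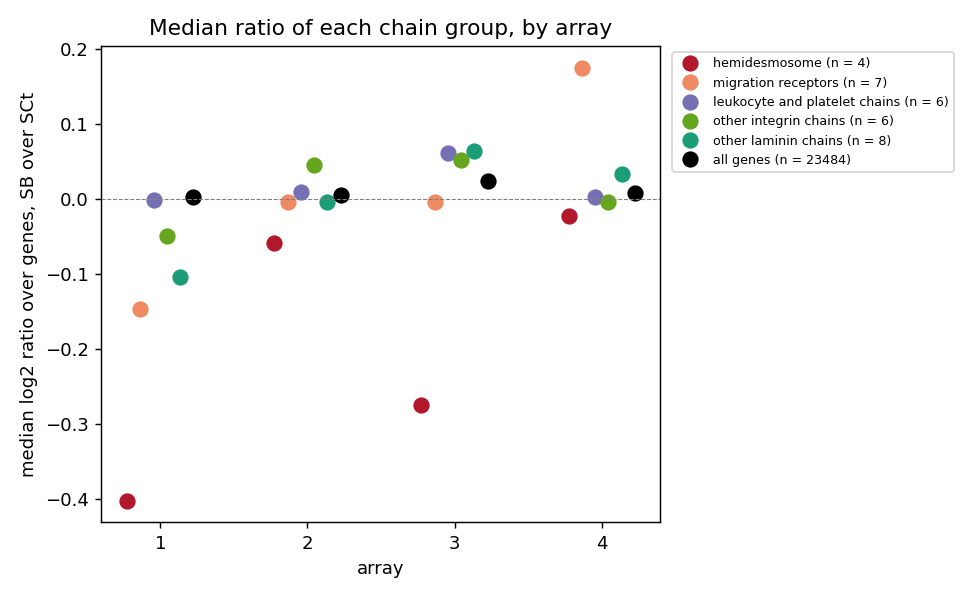
Median log2 ratio of SB over SCt cells (vertical axis) over the tested genes of each chain group and over all genes, on arrays 1 to 4 (horizontal axis; points are set apart sideways for legibility). The hemidesmosome median is the lowest point on each array, from -0.40 on array 1 to -0.02 on array 4.

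Among the remaining laminins, LAMB1, a beta chain of the laminins of embryonic and vascular basement membranes, came closest to the threshold. It read -0.15, -0.12, -0.25 and -0.41, all below 0, with a mean of -0.23 ± 0.13 (SD, n = 4; limma, adjusted p = 0.0659). With median centring in place of loess its mean was -0.0035. Array 4, which was the highest for ITGA6 and LAMB3, was here the lowest. LAMA1, the alpha chain of the embryonic laminin, had ratios of 0.20, 0.08, 0.46 and 0.08, all above 0, and a mean of 0.21 ± 0.18 (SD, n = 4; limma, adjusted p = 0.137). It passed the threshold when array 4 was left out (0.25, adjusted p = 0.0338 in limma), and its other probe was too dim to be tested.

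LAMA4, an endothelial and mesenchymal alpha chain, had 4 tested probes that ran from -0.09 to 0.17. LAMA5, the broadly used epithelial alpha chain, had a mean of -0.10 (interval -0.26 to 0.05), and LAMA2, the muscle alpha chain, one of 0.08 (interval -0.07 to 0.23). LAMC1, the most widely used gamma chain, had a mean of -0.015 (interval -0.17 to 0.14), and LAMC3 one of -0.0041 on its brightest probe. Both LAMB2 probes were slightly negative, at -0.06 and -0.09. The 8 chains had a median of -0.0094, with 3 positive and 5 negative, and none was called.

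The 8 chains of leukocyte and platelet integrins gave small ratios. ITGB2, the common beta chain of leukocyte integrins, and ITGAM, an alpha partner of it, were too dim for the test, each being well above background on 2 arrays in green and on 2 and 3 arrays in red. The untested ITGB2 ratios were -0.22, -0.20, -0.12 and -0.06, all below 0. Those of ITGAM were 0.05, 0.09, 0.20 and 0.07, all above 0. The other 6 had a median of 0.013, from -0.04 for ITGB7 to 0.19 for ITGAL, the latter on 3 arrays only as 1 spot was left out as an outlier (0.0007, 0.46 and 0.11). ITGAE, the chain by which lymphocytes bind CDH1, had a mean of 0.10, with array 1 at 0.30 and array 4 at -0.11. ITGAX gave -0.015 and ITGA2B, the platelet alpha chain, 0.04. ITGA4 gave -0.015 on its brightest probe and 0.05 and 0.19 on its other probes. None of the 6 passed even an unadjusted p of 0.05 by the brightest probe.

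The 7 remaining integrin chains included ITGA8, whose probe stayed near background in both channels of all 4 arrays. ITGA7, the laminin receptor of muscle, had ratios of 0.10, 0.12, 0.23 and 0.06 with a small mean of 0.13 ± 0.07 (SD, n = 4; limma, adjusted p = 0.242). ITGB8, a TGF-beta-activating partner of ITGAV, had a mean of -0.11 (interval -0.24 to 0.02), negative on 3 arrays. The collagen-binding chains ITGA1, ITGA10 and ITGA11 gave 0.09, -0.03 and 0.02, and ITGA9, which binds tenascin, gave -0.05. None of the 6 tested chains was called, and their median was -0.0007.

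Beyond the hemidesmosome, the partner list held focal adhesion proteins, ligands and further laminin receptors. In all, 42 of 44 partners were tested and 4 passed (9.52%, against 3.51% of all genes), 1 of them higher and 3 lower. The list was drawn up with results of these data known, so its share is no independent evidence. SDC4, a heparan sulphate proteoglycan that acts with integrins at focal adhesions, had ratios of -0.48, -0.52, -0.60 and -0.19. All 4 lay below 0, array 4 being nearest to it, and the mean was -0.45 ± 0.18 (SD, n = 4; limma, adjusted p = 0.0052). Its call was lost without array 3 (-0.40, adjusted p = 0.0842 in limma).

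Among 23 focal adhesion adaptors and kinases, 1 rose and 1 fell. FERMT2, a kindlin that activates integrins, rose by 0.27 ± 0.09 (SD, n = 4; limma, adjusted p = 0.0276), with ratios of 0.23, 0.16, 0.31 and 0.37, and its other probe also averaged 0.27 (limma, adjusted p = 0.0639). PARVB, an actin-binding partner of integrin-linked kinase, gave -0.34, -0.19, -0.32 and -0.15, with a mean of -0.25 ± 0.09 (SD, n = 4; limma, adjusted p = 0.0378). FERMT2 was thus above 0 and PARVB below 0 on all 4 arrays. Both calls were lost without array 1 (0.28 and -0.22), array 2 (0.30 and -0.27) or array 3 (0.25 and -0.23), with adjusted p between 0.0678 and 0.193 in limma. The other 21 adaptors ran from -0.14 (TLN1) to 0.19 (TNS3). Of 10 tested ligands and basement membrane genes, from -0.15 (AGRN) to 0.18 (COL4A2), none was called. In the same list the fibronectin gene FN1 gave -0.11 and the vitronectin gene VTN 0.02.

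Processing bore on which chains were called. Leaving out array 4 gave 5 called chains, ITGA3, ITGA6 and LAMA3 lower and ITGB5 and LAMA1 higher, whereas none was called without array 2 or without array 3. The number of all genes past the adjusted threshold without array 4 is not given here. These calls are therefore not read as particular to the chains. At an unadjusted p under 0.05 in limma there were 13 of 31 chains without array 4, against 4524 of 23479 genes. With arrays centred on their median in place of loess, 9 of 31 chains were called, all higher. Among them were LAMB3, LAMB2 and LAMC1, whose means were negative after loess. That setting called 8937 of all 28505 probes, 5599 of them higher and 3338 lower, so calls were common across the array. The chains were counted by gene and the array by probe, and the shares were not tested against each other. Any trend of the ratio with intensity, which loess removes, stays in the median-centred ratios. As the dyes were never swapped, whether such a trend came from the dyes or from the RNA cannot be told apart. Among the called partners, PARVB (-0.14) and SDC4 (-0.19) were no longer past the threshold under median centring, and COL17A1 (-0.39) and PARVB (-0.26) were not with the ratios of the scanner software. FERMT2 and PARVB also lost their calls with normexp without an offset (0.28 and -0.25) and with the trend and robust options (0.27 and -0.25). ITGB5, LAMA3 and ITGA6 were among the 16 chains that kept their signs in all 16 ways of processing. Those ways leave out the other ITGA6 probe taken alone, which averaged 0.03. ITGA3 reached 0.0014 under median centring.

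**Figure D4:**
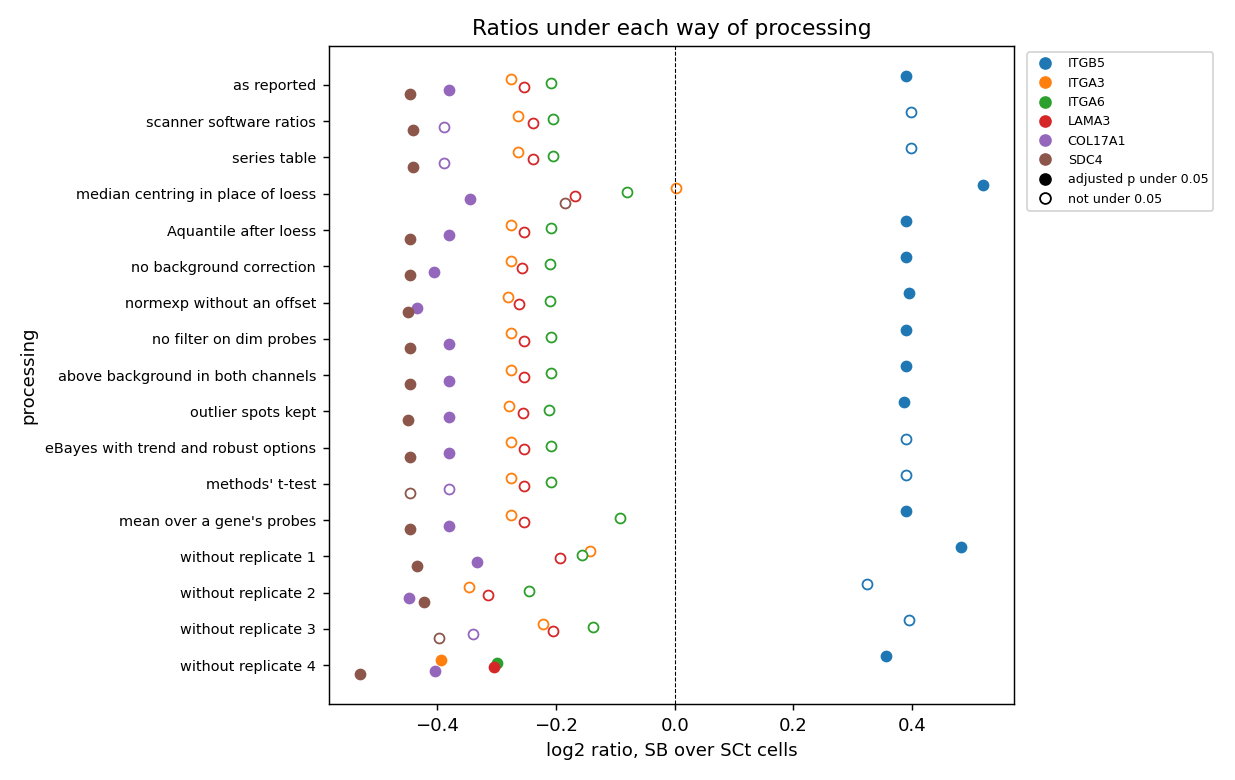
Log2 ratio of SB over SCt cells (horizontal axis) for ITGB5, ITGA3, ITGA6, LAMA3, COL17A1 and SDC4 under the reported processing and its 16 alternatives (rows), filled where the adjusted p was under 0.05. ITGB5 lies between 0.32 and 0.52 throughout, and ITGA3, ITGA6 and LAMA3 are filled only where array 4 (replicate 4) was left out.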

How the data were processed

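RNA of SB cells (red) and SCt cells (green), 15 μg per labelling, was hybridised on 4 two-colour arrays of 1 slide, with no dye swap. The authors deposited the scanner output of Agilent Feature Extraction 10.5.1.1 (named in the submitters' processing notes), with median intensity and local background per spot on a linear scale. The same deposited files hold the software's own ratio on a log10 scale. The authors also deposited a table of log2 values; its columns correlated at 0.974 to 0.999 with the software's ratio turned to log2, hence it gives SB over SCt, and its column medians lay between -0.017 and 0.02. Both of these served as alternatives.

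Background correction was by normexp (offset 50, limma 3.58.1 in R 4.3.3) over all 44495 spots. Control spots (1377) got weight 0, outlier spots (814 to 1168 per array) were left out, ratios were normalized by loess within arrays, and the spots of a probe were averaged. No spot was saturated. The plan named mean intensities, but the files used here hold medians, which were used instead. Probes entered the test if 1 channel was well above background on each of the 4 arrays, the channel being the same, with values on at least 2 (28505 of 34127 probes). The mean ratio was tested against 0 with lmFit and eBayes, with Benjamini-Hochberg adjustment over all kept probes. A gene is shown by its brightest kept probe. Intervals are 95% intervals of that fit. If the arrays share cultures, p-values measure only the spread between these samples, which may be technical.

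Probes were named through accessions in RefSeq GRCh38.p14 (24826 matched, 9301 unmatched). The file headers name another build for the probe design, so no probe position is given. Of 35 chains, 40 of 45 probes and 31 genes were tested. The text names all 35 chains, MTDH, the called partners and those needed for a range; other hemidesmosome partners, FN1 and VTN were added after their values were seen. Some genes of the planned partner and marker lists are not reported here. The members and lists were chosen with earlier results of these data known. Promoters were scanned in Python 3.11.15. The fit across probes was tested on simulated data.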

Additional observations from a re-analysis of the deposited data

Results flagged for a closer look

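ITGA5 on array 1 stood apart from the other arrays: its ratio there was -0.30, against 0.08 to 0.14 on the other 3. Among 35 genes checked in this way it was the 1 that stood out, and chance marks about 5% of groups.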

How the results depend on the processing

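Each array itself set SB against SCt RNA, so the ratio was already the paired measure and no further pairing was available. The chains called numbered 1 as reported, 0 with the software's ratios, the deposited table, eBayes with trend and robust options or the methods' t-test, 9 with median centring and 2 without the filter on dim probes. Leaving out 1 array gave 0 to 5. At an unadjusted p under 0.05, 7 of 31 chains and 4262 of 23484 genes were counted as reported, 3 chains, 6 partners and 3207 genes by the methods' t-test, 8 chains and 4025 genes with trend and robust options, 4 chains and 4180 genes with the software's ratios, 4 chains and 4366 genes with the series values, 12 chains and 10900 genes with median centring, and, in limma without array 1, 2, 3 or 4, 7, 9, 3 and 13 chains and 4098, 3264, 3014 and 4524 genes. The partners called numbered 4 as reported, 2 with the software's ratios and with the deposited table, 17 with median centring (16 higher), 2 without a normexp offset, 2 with trend and robust options, 0 by the methods' t-test, and 0 to 4 with 1 array left out. Of all probes 1055 were called (376 higher, 679 lower), 698 with the deposited table, 8937 with median centring (5599 higher, 3338 lower), 579 with trend and robust options, 0 by the methods' t-test, and 204 to 1991 with 1 array left out. Median centring moved the median of the hemidesmosome from -0.19 to -0.04, of the migration receptors from 0.0055 to 0.11, of the other chains from -0.0093 to 0.0816 and of all genes from 0.013 to 0.0715, and turned LAMB2 (0.19), LAMB3 (0.22), LAMC1 (0.28) and CD151 (0.20) from negative to past the threshold, higher. MTDH (-3.18) missed the threshold by the methods' t-test (adjusted p = 0.143). All calls by that t-test use the adjustment added here, which the study's methods do not name. Of 496 member ratios under alternatives, 32 changed sign, 3 of them past the threshold and the rest no larger than 0.10; 16 chains never changed sign. The cause of these shifts was not tested.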
